A study of Mus musculus with 10 samples.

Results

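The YAP, TEAD and Hippo pathway was measured here through 10 genes in 10 mouse thyroid tumours. The genes were the coactivators Yap1 and Wwtr1, the DNA-binding partners Tead1, Tead2, Tead3 and Tead4, the inhibitory kinases Lats1 and Lats2, and the target genes Amotl2 and Ankrd1. They, and the gene lists used below, were chosen by name with earlier results of these data known. Every probe set whose platform symbol was exactly one of these names was taken, which gave 11 probe sets, and for Tead1, the gene with a pair of them, the brighter was used. The 10 genes stand among 19938 genes that the arrays measured. Total RNA of each tumour was biotin-labelled for an Affymetrix whole-transcript array. Of the tumours, 5 were anaplastic thyroid carcinomas (ATC), an undifferentiated and aggressive tumour, from mice labelled TPOCreER, BrafV600E and p53 -/-. The other 5 were papillary thyroid carcinomas (PTC), a differentiated tumour, from mice labelled TPOCreER and BrafV600E. All the mice were of a mixed C57BL/6;129SvJae background, and the labels give no ages. TPOCreER is a Cre recombinase under a thyroid-specific promoter that is active only in the presence of an oestrogen-receptor ligand, so the Braf allele is switched on in thyroid follicular cells and not in stroma. Tumour type and p53 genotype changed together and cannot be told apart. The labels call the tumours biological replicates without naming animals, so the p-values measure the spread between these tumours.

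The Hippo pathway is a kinase cascade that restrains growth in response to cell contact, polarity and mechanical tension. When it is active, the LATS kinases phosphorylate YAP and its paralog TAZ, which Wwtr1 encodes, and the phosphorylated proteins are held in the cytoplasm or degraded. When it is inactive, YAP and TAZ enter the nucleus and bind TEAD proteins, which recognise DNA and carry no strong activating domain of their own. Much of this control acts on proteins, and transcript levels do not measure phosphorylation or location. Some targets feed back on the pathway: the AMOTL2 scaffold and the LATS2 kinase inhibit YAP.

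TEAD proteins recognise a short element, known from muscle genes, that contains CATTCC, which is GGAATG on the other strand. The 250 bases before the annotated start of Ankrd1 and of Wwtr1 are shown because these members had the largest differences between the tumour types. They are RefSeq sequence of build GRCm38.p6, read 5′ to 3′ on the strand of the gene, with every match to CATTCC or GGAATG in capitals. The Ankrd1 stretch is chr19:36119845-36120094 on the minus strand and the Wwtr1 stretch is chr3:57575911-57576160 on the minus strand.
Ankrd1: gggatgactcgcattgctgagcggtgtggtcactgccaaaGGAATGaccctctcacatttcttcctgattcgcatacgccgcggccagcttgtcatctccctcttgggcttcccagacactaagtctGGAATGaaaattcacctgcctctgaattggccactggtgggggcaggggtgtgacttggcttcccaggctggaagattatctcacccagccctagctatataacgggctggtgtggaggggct
Wwtr1: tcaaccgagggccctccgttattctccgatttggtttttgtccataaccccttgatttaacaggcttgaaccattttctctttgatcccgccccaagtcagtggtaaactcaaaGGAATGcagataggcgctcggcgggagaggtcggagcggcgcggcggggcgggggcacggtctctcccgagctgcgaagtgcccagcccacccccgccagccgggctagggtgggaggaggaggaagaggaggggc
In Ankrd1 the matches begin 210 and 123 bases before the start, and in Wwtr1 the match begins 136 bases before it. Of the 10 members, 8 had such a window, and in 5 of them (Ankrd1, Wwtr1, Yap1, Tead3 and Amotl2) at least 1 window held the element. Over all promoters of the same length, 12.6% of 32544 windows held it, or 14.3% of 26742 genes. The element TGACTCA of AP-1 factors, or TGAGTCA on the other strand, was in 4.46% of all windows and in 0 of the 8 members. These matches describe the sequence and do not show binding in these tumours.

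The deposited values ran from 2.79 to 14.15, with array medians of 7.25 to 7.34, and were read as log2 intensities. Over all genes, 21.2% passed an adjusted p of 0.05 between ATC and PTC (limma, Benjamini-Hochberg), 11.5% higher and 9.72% lower in ATC. The lowest level of the thyroid marker Tg was 6.84 in ATC and 11.28 in PTC, so some ATC tumours held a low level of this defining transcript. Of 9 macrophage markers 9 rose and 0 fell (list mean 10.69 to 11.40 in ATC and 9.53 to 9.94 in PTC), and of 8 epithelial markers 0 rose and 6 fell (8.16 to 9.77 in ATC and 10.51 to 10.71 in PTC). Of 9 fibroblast markers 0 rose and 3 fell (8.90 to 9.93 in ATC and 9.58 to 9.76 in PTC), of 9 endothelial markers 0 rose and 2 fell (7.96 to 8.33 in ATC and 8.20 to 8.60 in PTC), and of 7 lymphocyte markers 0 rose and 2 fell (6.23 to 6.75 in ATC and 6.58 to 7.38 in PTC). Of 9 thyroid markers 0 rose and 3 fell (6.69 to 8.24 in ATC and 8.05 to 9.11 in PTC). These shifts accompany every difference below, and their part in those differences was not tested except where a value is given. In whole tumours, fewer cells of a type and less RNA per cell cannot be told apart.

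Of the 10 members, 3 rose in ATC, 0 fell and 7 did not pass, which is 30% against 21.2% of all genes. As members and lists were chosen with earlier results known, this share and those of the lists below are descriptions only. Ankrd1 rose most, followed by Wwtr1 and Tead4. In Ankrd1 and Wwtr1 every ATC tumour lay above every PTC tumour, as in 9.13% of all genes (16.9% had no overlap in either direction), and the other 8 members overlapped. The median difference of the members was 0.06 on the log2 scale, against −0.02 over all genes. The genes that rose thus included 1 of the coactivators, 1 of the 4 TEAD genes and 1 of the target genes, and neither LATS kinase gene passed.

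**Figure D1:**
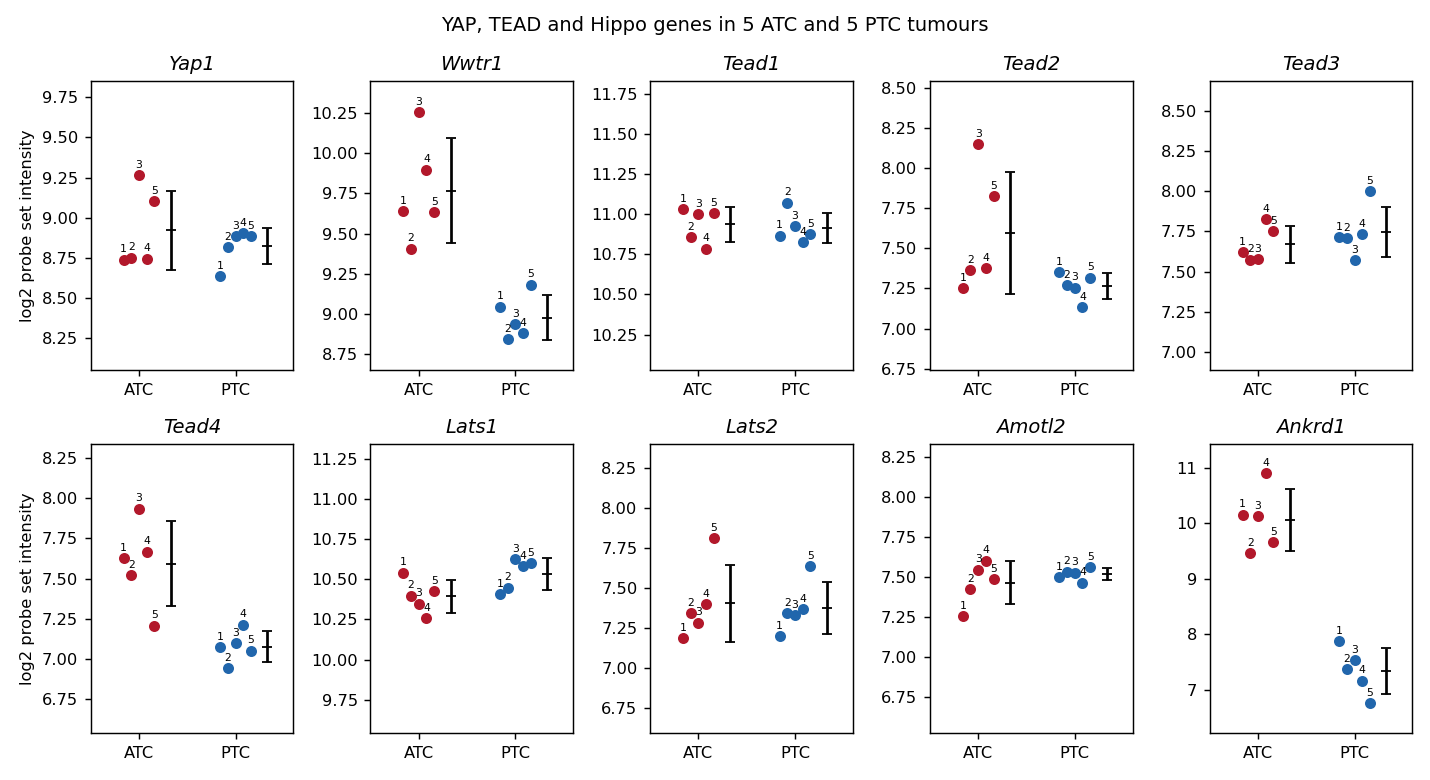
Log2 probe set intensity (y axis) of the 10 member genes in each of 5 ATC tumours (red) and 5 PTC tumours (blue), numbered by replicate, with the mean and SD as bars. The y axes are centred on each gene and span the same number of log2 units except that of Ankrd1, which is wider; Ankrd1 and Wwtr1 are the panels without overlap.

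Of the coactivator genes, Wwtr1 passed the test and Yap1 did not. Wwtr1, which encodes TAZ, was at 9.64, 9.41, 10.26, 9.90 and 9.64 in ATC replicates 1 to 5, against 9.05, 8.84, 8.94, 8.88 and 9.18 in PTC replicates 1 to 5 (probe set 10498284). All 5 ATC tumours were above all 5 PTC tumours, with ATC replicate 3 highest and ATC replicate 2 lowest of their group. The means were 9.77 ± 0.32 in ATC and 8.98 ± 0.14 in PTC (SD, n = 5 each), a difference of 0.79 (95% interval 0.48 to 1.10) or 1.73-fold, with an adjusted p of 0.00275. Yap1 was at 8.74, 8.75, 9.27, 8.75 and 9.10 in ATC, against 8.64, 8.82, 8.89, 8.91 and 8.88 in PTC (probe set 10590808). ATC replicates 3 and 5 lay above every PTC tumour, and the other 3 ATC tumours lay among them. The difference of 0.09 (95% interval −0.16 to 0.35, adjusted p = 0.622) leaves room for a rise or a small fall, and it was 0.00873 without ATC replicate 3.

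To ask whether Wwtr1 moved more than Yap1, the difference between their log2 values was taken within each tumour, where a scaling of the whole array cancels. The comparison of paralogs was chosen after the values had been seen and covered 8 pairs. Wwtr1 minus Yap1 was 0.53 to 1.15 in ATC and −0.02 to 0.41 in PTC, so the groups did not overlap and the shift was 0.70. The exact two-sided permutation p was 0.00794, the smallest that 5 against 5 tumours can give, and 0.0635 after adjustment over the 8 pairs. A pair alone at that smallest p cannot get under 0.05 after this adjustment, so the adjusted test could not decide here. The level of the difference itself has no meaning, since probe sets differ in brightness. With any single tumour left out the shift stayed between 0.62 and 0.77.

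Among the TEAD genes, Tead4 alone passed the test. Tead4, a TEAD family gene with roles in the early embryo and in muscle, was at 7.63, 7.52, 7.94, 7.67 and 7.21 in ATC, against 7.07, 6.94, 7.10, 7.21 and 7.05 in PTC (probe set 10548146). ATC replicates 1 to 4 were above all PTC tumours, and ATC replicate 5 lay just under the highest of them. The difference was 0.52 (SE 0.12, 95% interval 0.26 to 0.78), or 1.43-fold, with an adjusted p of 0.00956. Without ATC replicate 5 it was 0.61 (adjusted p = 0.00188).

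Tead2, known from the early embryo and neural precursors, was at 7.25, 7.37, 8.15, 7.38 and 7.82 in ATC, against 7.35, 7.27, 7.25, 7.13 and 7.32 in PTC (probe set 10552874). ATC replicates 3 and 5 stood apart at the top, replicates 2 and 4 lay just above the highest PTC tumour, and replicate 1 lay among the PTC tumours. The SD was 0.38 in ATC and 0.08 in PTC, and the difference of 0.33 did not pass (95% interval −0.01 to 0.67, adjusted p = 0.168). Without ATC replicate 3 it was 0.19 (adjusted p = 0.289). Tead1, a widely expressed family member, ranged from 10.78 to 11.03 in ATC and from 10.83 to 11.07 in PTC (probe set 10556456), with a difference of 0.02 (95% interval −0.14 to 0.19) whose sign turned with a further quantile normalization. Its dimmer probe set 10556442 differed by 0.15 (95% interval −0.08 to 0.38, adjusted p = 0.379). Tead3, known from placenta, ranged from 7.57 to 7.83 in ATC and from 7.57 to 8.0 in PTC (probe set 10449419), with a difference of −0.07 (95% interval −0.27 to 0.12, adjusted p = 0.620). The intervals of Tead1 and Tead3 do not include changes as large as the Tead4 estimate.

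Taken within tumours, Tead4 shifted by 0.49 relative to Tead1 and by 0.59 relative to Tead3 between ATC and PTC (exact permutation p = 0.0238 for each, 0.0635 adjusted over the 8 pairs). Relative to Tead2 the shift of Tead4 was 0.19 (exact permutation p = 0.365). The shifts of Tead2 were 0.30 relative to Tead1 and 0.40 relative to Tead3, and that of Tead3 relative to Tead1 was −0.10 (exact permutation p = 0.0952, 0.0714 and 0.444). None of these passed after adjustment, which a single pair could not do even at the smallest possible p. Without ATC replicate 1 the shift of Tead2 relative to Tead1 was 0.41 (exact permutation p = 0.0159), without ATC replicate 4 that of Tead2 relative to Tead3 was 0.50 (exact permutation p = 0.0476) and without ATC replicate 5 that of Tead4 relative to Tead2 was 0.34 (exact permutation p = 0.0476), before adjustment over the pairs.

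The kinases that phosphorylate YAP and TAZ showed no difference that passed. Lats1 was at 10.54, 10.40, 10.35, 10.26 and 10.43 in ATC, against 10.41, 10.45, 10.63, 10.58 and 10.60 in PTC (probe set 10361660), a difference of −0.14 (95% interval −0.30 to 0.02, adjusted p = 0.227). It passed under a further quantile normalization (−0.24, adjusted p = 0.0385). Lats2, the kinase gene that is itself a YAP target, was at 7.19, 7.34, 7.28, 7.40 and 7.81 in ATC, against 7.20, 7.34, 7.33, 7.37 and 7.64 in PTC (probe set 10420413). The highest tumour of each group was replicate 5, and the difference was 0.03 (95% interval −0.23 to 0.29, adjusted p = 0.899). Within tumours, Lats2 shifted by 0.17 relative to Lats1 (exact permutation p = 0.254, 0.339 adjusted over the 8 pairs).

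**Figure D2:**
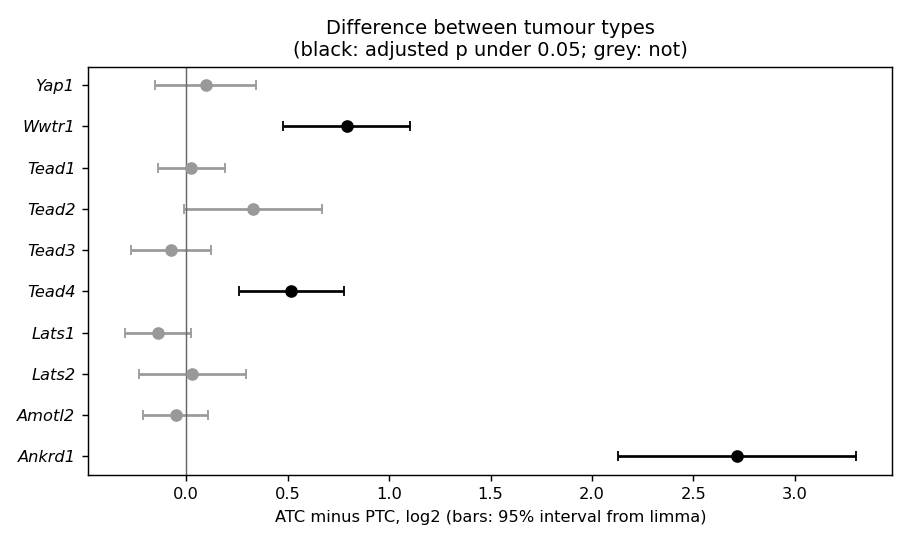
ATC minus PTC difference in log2 units (x axis) of the 10 members, with 95% intervals from limma. Wwtr1 (0.79), Tead4 (0.52) and Ankrd1 (2.72), in black, passed an adjusted p of 0.05, and the intervals of the other 7, in grey, include 0.

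The target genes behaved unlike each other. Ankrd1, an ankyrin repeat protein of heart and muscle that many other cells make when YAP and TEAD are active, was at 10.16, 9.46, 10.12, 10.90 and 9.66 in ATC, against 7.88, 7.38, 7.54, 7.17 and 6.76 in PTC (probe set 10467191). Every ATC tumour was above every PTC tumour, replicate 2 being the lowest in ATC and replicate 1 the highest in PTC. The means were 10.06 ± 0.56 in ATC and 7.35 ± 0.42 in PTC (SD, n = 5 each), a difference of 2.72 (SE 0.27, 95% interval 2.13 to 3.30) or 6.57-fold (4.38 to 9.85), with an adjusted p of 0.000125. Counting Ankrd1 itself, 20 of 19938 genes (0.100%) had a rise that large or larger. Falls of that size were not counted.

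Skeletal muscle, which lies next to the thyroid, also makes Ankrd1, and muscle markers are given beside it. Of 12 skeletal muscle markers 0 rose and 0 fell, with list means of 7.17 to 8.40 in ATC and 6.97 to 9.02 in PTC. The PTC tumours with the highest muscle means, replicates 4 (9.02) and 1 (9.0), had Ankrd1 at 7.17 and 7.88. The PTC tumour with the lowest muscle mean, replicate 2 (6.97), had it at 7.38. With the muscle mean as a covariate the Ankrd1 difference was 2.66 (adjusted p = 0.000349), and the Wwtr1 and Tead4 differences were 0.76 and 0.50 (adjusted p = 0.00582 and 0.0191). Of 7 smooth muscle and pericyte markers 0 rose and 1 fell, with list means of 7.68 to 8.19 in ATC and 7.97 to 8.37 in PTC, and with that mean as a covariate, chosen after the data were seen, the differences were 2.55, 0.68 and 0.42 (adjusted p = 0.00053, 0.0079 and 0.029). With the endothelial mean as a covariate, also chosen after the data were seen, Ankrd1 differed by 2.46 (adjusted p = 0.0114) and the calls of Wwtr1 (0.73, adjusted p = 0.096) and Tead4 (0.48, adjusted p = 0.191) ended. That fit called 3.51% of all genes, and the endothelial mean itself was lower in ATC. No fit used the macrophage or epithelial mean, and the source of the Ankrd1 transcript was not tested.

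Amotl2, the scaffold gene, was at 7.26, 7.43, 7.55, 7.60 and 7.49 in ATC, against 7.50, 7.53, 7.53, 7.47 and 7.56 in PTC (probe set 10588226). ATC replicates 1 and 2 lay below all PTC tumours, ATC replicate 4 lay above them, and ATC replicates 3 and 5 lay among them. The difference was −0.05 (95% interval −0.21 to 0.11, adjusted p = 0.675), an interval that leaves out a rise of the size seen in Tead4. Amotl2 is a dim gene, and without signal over background a compression of its difference cannot be judged. Its promoter window holds the TEAD element, as that of Ankrd1 does.

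The ATC tumours varied more than the PTC tumours in 9 of the 10 members, Tead3 being the exception, and in 68.6% of all genes. ATC replicate 3 had the highest value of its group for Yap1, Wwtr1, Tead2 and Tead4, and ATC replicate 4 for Tead3, Amotl2 and Ankrd1. ATC replicate 5 was next to replicate 3 in Yap1 and Tead2 but lowest of its group in Tead4. ATC replicate 2, which had the highest epithelial marker mean of the ATC tumours (9.77), had the lowest Wwtr1 and Ankrd1 of its group. ATC replicate 4, next in epithelial mean (9.22), had the highest Ankrd1 (10.90) and a Wwtr1 of 9.90, under replicate 3 only. ATC replicate 5 also had the lowest array weight in limma (0.375). Without any single tumour the calls of Ankrd1 (2.51 to 2.86), Wwtr1 (0.67 to 0.88) and Tead4 (0.43 to 0.61) were kept.

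**Figure D3:**
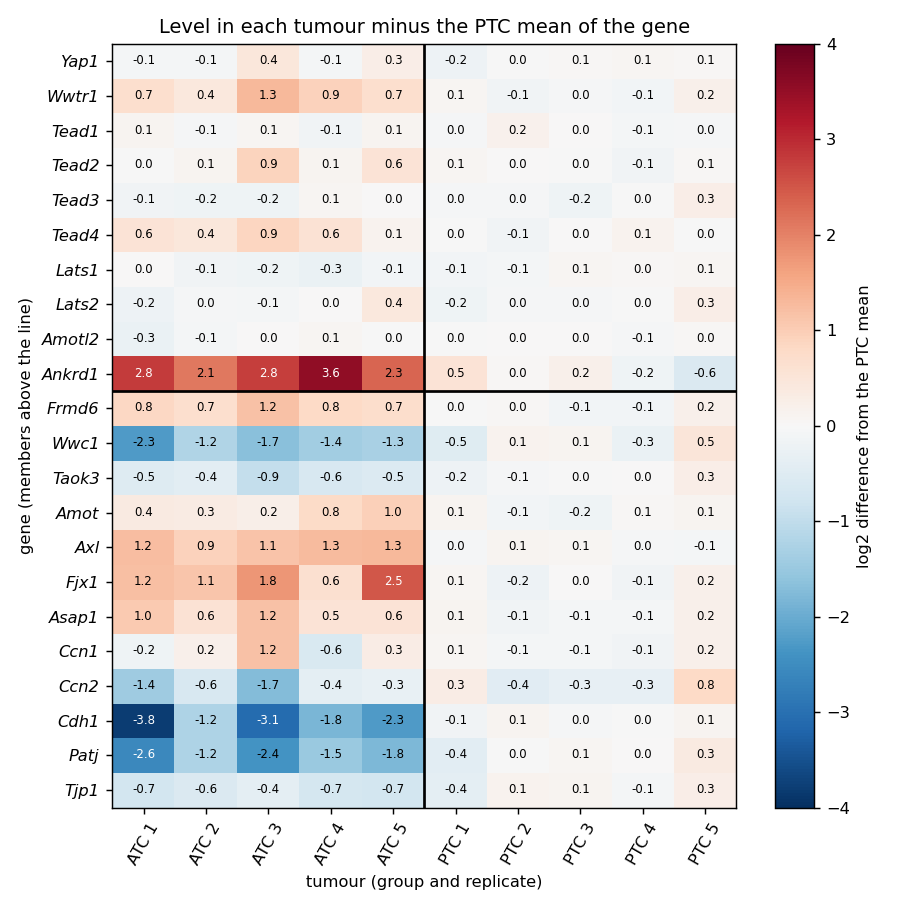
Log2 level of each gene (rows) in each tumour (columns, ATC left and PTC right) minus the gene's PTC mean, for the 10 members above the line and 12 other named pathway genes below it. Relative to the PTC mean, Ankrd1 was at 2.12 to 3.56 and Cdh1 at −3.79 to −1.22 in the ATC tumours, and Yap1 and Tead2 were raised in ATC replicates 3 and 5.

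Among 16 other measured genes for kinases and scaffolds of the pathway, 1 rose, 2 fell and 13 did not pass. The share called, 18.8%, was near the 21.2% of all genes, and the median difference was 0.003. Frmd6, a FERM-domain protein that activates the kinase cascade, rose by 0.84 (SE 0.10, adjusted p = 0.000344), with 8.71 to 9.19 in ATC and 7.90 to 8.22 in PTC. Wwc1, which encodes the scaffold KIBRA that activates LATS, fell by 1.57 (SE 0.22, adjusted p = 0.000716), with 6.82 to 7.86 in ATC and 8.59 to 9.57 in PTC. Taok3, of the TAO kinase family that phosphorylates the upstream Hippo kinases, fell by 0.61 (SE 0.11, adjusted p = 0.0026), a call that ended with the endothelial covariate (−0.42, adjusted p = 0.147). In these 3 of the 16 genes the groups did not overlap, and 16.9% of all genes had no overlap in either direction. The differences of the kinase gene Stk4 (0.13, adjusted p = 0.409), of Nf2, which encodes the scaffold merlin (−0.18, adjusted p = 0.093), and of the adaptor genes Sav1 (0.06, adjusted p = 0.65) and Mob1a (0.05, adjusted p = 0.666) did not pass. Under a further quantile normalization Nf2 passed (−0.23, adjusted p = 0.0254) and the signs of Sav1 and Mob1a turned. That setting called 6 genes of the list (1 higher and 5 lower) and 21.1% of all genes.

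Proteins that bind YAP, LATS or TEAD gave 2 rises and 1 fall among 13 genes. The share called, 23.1%, was near the 21.2% of all genes, and the median difference was −0.02. Amot, the angiomotin scaffold of the same family as Amotl2, rose by 0.53 (SE 0.14, adjusted p = 0.0172), with 7.02 to 7.73 in ATC and 6.61 to 6.89 in PTC. The third angiomotin gene, Amotl1, differed by −0.32 (adjusted p = 0.113) and leaving out ATC replicate 3 (−0.40, adjusted p = 0.045) or ATC replicate 5 (−0.40, adjusted p = 0.0442) brought it past the threshold, as lower, as did a further quantile normalization (−0.38, adjusted p = 0.0337) and array weights (−0.39, adjusted p = 0.0216). The casein kinase gene Csnk1e rose by 0.59 (adjusted p = 0.042), and Vgll3, a TEAD cofactor that competes with YAP for binding, fell by 0.52 (adjusted p = 0.0469). The Csnk1e call ended without ATC replicate 1, 3 or 5 or PTC replicate 1, 2, 3 or 4 (0.47 to 0.61, adjusted p 0.0699 to 0.0944) and with the skeletal muscle, smooth muscle or endothelial covariate (0.59, 0.61 and 0.36, adjusted p = 0.0663, 0.0796 and 0.579). That of Vgll3 ended without ATC replicate 3, 4 or 5 or PTC replicate 1, 2, 3 or 4 (−0.54 to −0.40, adjusted p 0.0752 to 0.108), so without PTC replicate 1, 2, 3 or 4 the list held 1 call. It also ended with a further quantile normalization (−0.48, adjusted p = 0.0689), median centring (−0.48, adjusted p = 0.0738) and array weights (−0.39, adjusted p = 0.0642). With the skeletal muscle, smooth muscle or endothelial covariate Vgll3 differed by −0.51, −0.46 and −0.47 (adjusted p = 0.0735, 0.123 and 0.396), and the endothelial covariate ended the Amot call too (0.64, adjusted p = 0.118). Vgll4, another TEAD cofactor that competes with YAP, differed by −0.26 (adjusted p = 0.144).

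Other genes known as YAP and TEAD targets moved in both directions. Of 21 measured genes 4 rose, 3 fell and 14 did not pass, which is 33.3% against 21.2% of all genes (11.5% higher and 9.72% lower), with a median difference of 0.03. Axl, a receptor tyrosine kinase, was at 10.37, 10.07, 10.29, 10.41 and 10.43 in ATC, against 9.10, 9.24, 9.23, 9.10 and 9.05 in PTC, a rise of 1.17 (SE 0.08, adjusted p = 2.23e-05). Macrophages also make Axl, and their markers rose too. Fjx1, which encodes a Golgi kinase of the Fat and Dachsous system, rose by 1.43 (SE 0.28, adjusted p = 0.00395), with 7.31 to 9.15 in ATC and 6.49 to 6.88 in PTC. The GTPase-activating protein gene Asap1 rose by 0.78 (adjusted p = 0.00241), and Birc5, which encodes survivin and rises in dividing cells, by 1.00 (adjusted p = 0.00842). Ccdc80, a matrix protein gene, fell by 1.39 (SE 0.23, adjusted p = 0.00188), and Crim1 and the kinase gene Nuak2, named to complete the count, fell by 0.71 and 0.58 (adjusted p = 0.00599 and 0.000925). The endothelial covariate left 1 rise, of Axl, and 1 fall, of Nuak2, in the list, and called 3.51% of all genes. It ended the calls of Fjx1 (1.24, adjusted p = 0.136), Asap1 (0.71, adjusted p = 0.0922), Birc5 (0.95, adjusted p = 0.171) and Ccdc80 (−1.34, adjusted p = 0.0692).

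The matricellular genes Ccn1 and Ccn2, widely used readouts of YAP activity, did not pass the test. Ccn1, also called Cyr61, was at 9.58, 9.96, 10.93, 9.15 and 10.05 in ATC, against 9.85, 9.69, 9.67, 9.63 and 9.97 in PTC, and its difference of 0.17 (95% interval −0.40 to 0.74, adjusted p = 0.706) was −0.08 without ATC replicate 3. Ccn2, also called Ctgf, was at 8.58, 9.37, 8.27, 9.62 and 9.71 in ATC, against 10.30, 9.56, 9.68, 9.68 and 10.80 in PTC. Its difference was −0.90 (95% interval −1.60 to −0.20, adjusted p = 0.0687), and it passed as lower in ATC without ATC replicate 5 (−1.05, adjusted p = 0.0488). With the endothelial covariate the Ccn2 difference was −0.07 (adjusted p = 0.963). ATC replicate 3 thus had the highest Ccn1 and the lowest Ccn2 of the ATC tumours.

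Most measured genes for the polarity and junction complexes that feed into the pathway fell. Of 15 such genes 0 rose, 9 fell and 6 did not pass, which is 60% against 9.72% of all genes that fell, and the median difference was −0.43. The 9 that fell did not overlap between the tumour types, and ATC lay below PTC without overlap in 7.74% of all genes. The margin was very narrow in some of them. Tjp1 was at 11.258 in ATC replicate 3 and 11.259 in PTC replicate 1, and Llgl2 at 7.227 in ATC replicate 4 and 7.236 in PTC replicate 2. Cdh1, which encodes E-cadherin, fell by 2.43 (SE 0.39, adjusted p = 0.00136), with 7.57 to 10.13 in ATC and 11.21 to 11.45 in PTC. Patj, a scaffold of the Crumbs polarity complex, fell by 1.89 (SE 0.25, adjusted p = 0.000497), and Marveld3, a tight junction protein gene, by 0.94 (adjusted p = 0.00117). Tjp1, which encodes ZO-1, fell by 0.63 (adjusted p = 0.00413) and Pard6b, of the PAR polarity complex, by 0.58 (adjusted p = 0.00396). Epithelial markers fell with this list, and Cdh1 belongs to both. With the endothelial covariate 1 of the 15 genes passed as lower, Patj (−1.36, adjusted p = 0.0339), and the calls of Cdh1 (−1.64, adjusted p = 0.0895), Marveld3 (−0.64, adjusted p = 0.0782), Tjp1 (−0.65, adjusted p = 0.0849) and Pard6b (−0.53, adjusted p = 0.124) ended. A further quantile normalization gave 11 falls and 1 rise in the list. Over all genes that setting called 21.1%, and the endothelial covariate 3.51%.

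**Figure D4:**
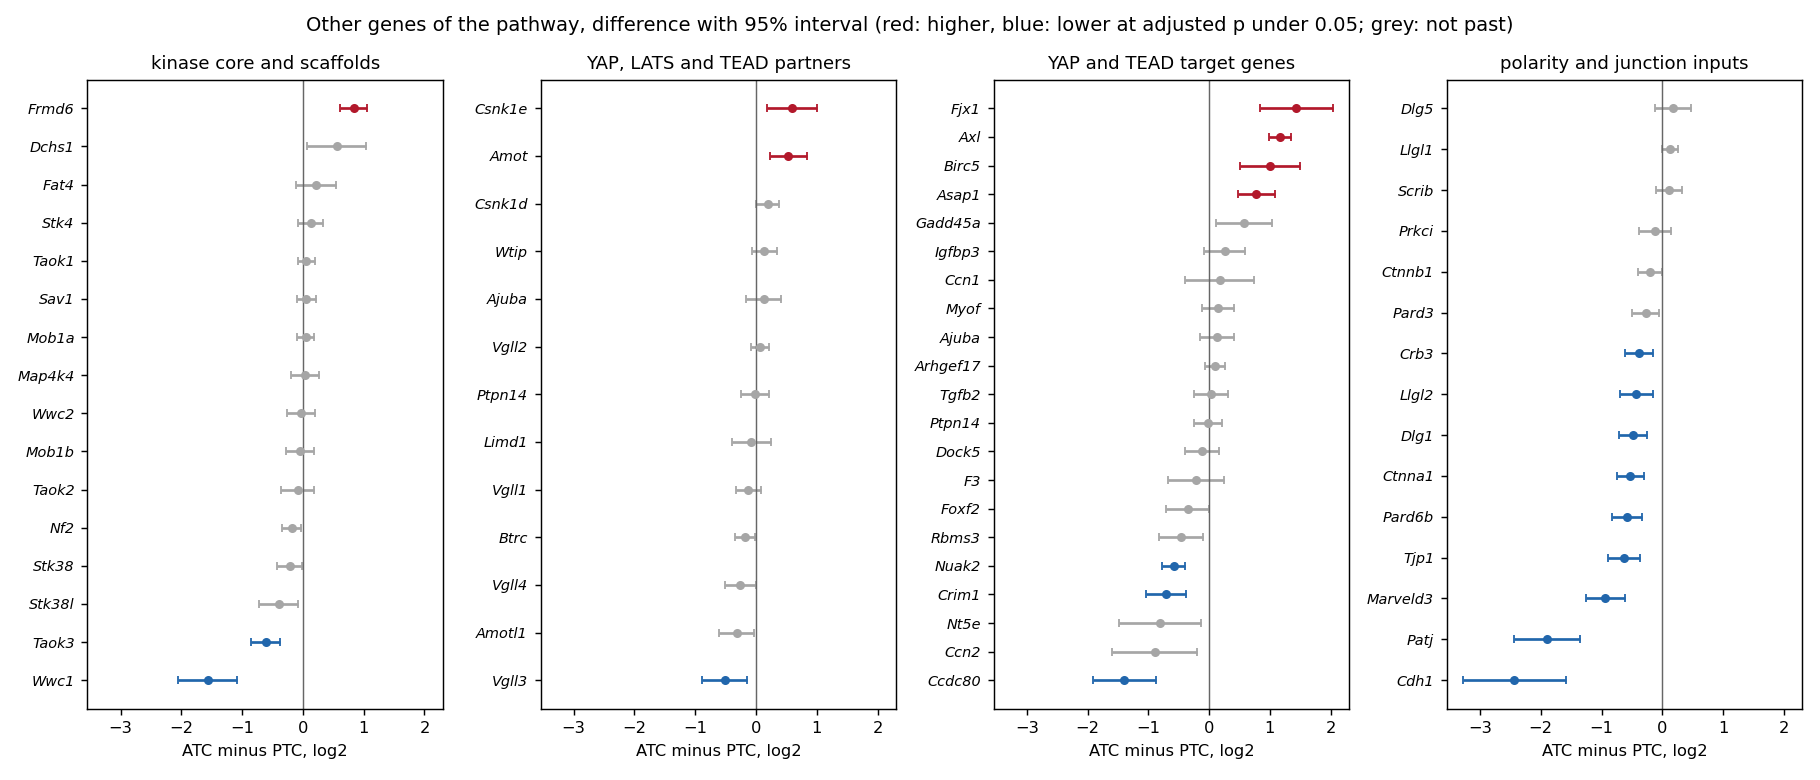
ATC minus PTC difference in log2 units (x axis) with 95% intervals for the other genes of the pathway in 4 lists, without the 10 members. Red points rose and blue points fell at an adjusted p under 0.05, and the polarity and junction list holds 9 blue points and 0 red ones.

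The genes whose profile over the 10 tumours lay closest to that of Ankrd1, by the root mean square difference of mean-centred log2 values, were Hmga2 (0.413), Htra1 (0.451) and Gzmg (0.470). Hmga2 encodes a chromatin protein of embryonic cells, Htra1 a secreted protease and Gzmg a granzyme, and their ATC minus PTC differences were 2.79, 2.94 and 2.46. Closest to Wwtr1 were Cfap300 (0.0823), Apbb2 (0.100) and Stard13 (0.106), with differences of 0.75, 0.86 and 0.77. These are descriptions over tumours that fall into separate types, so the likeness rests largely on the difference between types.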

How the data were processed

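Total RNA of 5 ATC and 5 PTC tumours was biotin-labelled for Affymetrix whole-transcript arrays, as the labels' protocols state. The deposited table holds 35556 probe sets, and its range marks the values as log2 intensities; no further transformation was applied. Affymetrix Power Tools and limma stand in the submitters' processing notes. How the authors corrected background, normalized or chose a build was not given in the sources used here. Detection above background is unknown too, which may compress dim genes. Gene names came from the platform annotation, updated through the GRCm38.p6 gene table. Of the probe sets, 21789 had 1 symbol, 1621 several and 12146 none, and each gene was represented by its brightest probe set (19938 genes). Groups came from the sample titles.

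The 2 tumour types were compared over all genes by limma 3.58.1 in R 4.3.3 (lmFit, eBayes) without covariates, as ATC minus PTC, with Benjamini-Hochberg adjustment over all genes at 0.05 and 95% intervals. The procedure was tested on simulated data with independent genes and the same spread in both groups. The tumours differ from that setting, as 68.6% of all genes varied more in ATC. Within-tumour differences used exact permutation tests (scipy 1.17.1). The precision is limited by the number of arrays. The members and lists were chosen with earlier results of these data known. Named were the members, up to 5 genes per pathway list with the largest differences among those past the threshold, some classical members in any case, and the 3 genes closest in profile to the 2 members with the largest differences. Stk3, Areg, Pals1 and some other listed genes are not reported here. Alternatives were other probe set summaries, filters, scalings, variance models, weights, a replicate block, marker covariates and each array left out. Replicates with the same number did not deviate together (correlations −0.086 to 0.120), so no pairing of tumours by number was seen.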

Additional observations from a re-analysis of the deposited data

Results flagged for a closer look

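In 2 of the 68 groups of 5 tumours examined for the 34 named genes, a single tumour stood far from the other 4, against about 5% of groups by chance. Frmd6 was at 9.19 in ATC replicate 3, above 8.71 to 8.84 in the other ATC tumours, and Mob1a was at 9.87 in ATC replicate 4, below 10.02 to 10.05 in the others.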

How the results depend on the processing

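Of the 22 alternatives, 12 changed the processing and 10 left out an array. The count of members that passed was 3 in the main setting and with each array left out (3 to 3), 4 with a further quantile normalization and 1 with the endothelial covariate. The count over the 63 other pathway genes was 22, 18 to 24 with an array left out and 28 with a further quantile normalization. It was 26 with array weights and 5 with the endothelial covariate, among them Wwc1, Frmd6, Axl and Patj. Over all genes, 21.2% were called in the main setting, 16.3% to 20.7% with an array left out and 21.1% with a further quantile normalization. The shares were 23.3% with array weights, 18.9% with the replicate number as a block and 3.51% with the endothelial covariate. That covariate also gave −0.0574 for Yap1, −0.115 for Tead1, 0.0452 for Tead3 and −0.0118 for Mob1a, turning signs that had not passed, and ended the calls of Wwtr1 (0.73) and Tead4 (0.475). A further quantile normalization turned the signs of Tead1 (−0.0654), Sav1 (−0.0243) and Mob1a (−0.0294) and called Lats1 (−0.238). Lats2 was −0.00362 with array weights, and it ranged from −0.0722 (without ATC replicate 5) to 0.0944 (without PTC replicate 5), with −0.0152 without PTC replicate 1. Ccn1 ranged from −0.0783 to 0.367 with an array left out. The causes were not tested. With the replicate number as a block, 3 members and 23 other pathway genes passed (7 polarity and junction genes, against 9), with 2.72 for Ankrd1 (adjusted p = 0.00121), 0.791 for Wwtr1 (adjusted p = 0.00865) and 0.517 for Tead4 (adjusted p = 0.0146), and Ccn2 passed as lower (−0.898, adjusted p = 0.0459). Signal over background is not given, which limits what can be said of dim genes such as Tead2, Tead3, Tead4, Lats2 and Amotl2.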

Other observations

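On chromosome 9 the protein-coding genes next to Yap1 are Birc3 and Cfap300. Cfap300, a cilium gene, was at 6.30, 6.04, 6.85, 6.56 and 6.46 in ATC, against 5.71, 5.69, 5.66, 5.60 and 5.78 in PTC, a difference of 0.75 (SE 0.13, adjusted p = 0.00194, limma), while Birc3, an inhibitor of apoptosis gene, differed by −0.10 (adjusted p = 0.626) and Yap1 by 0.09. All 5 ATC tumours had more Cfap300 than all 5 PTC tumours, and its highest tumour, ATC replicate 3, was also the highest in Yap1 and Wwtr1. Its PTC values lay under the lower quartile of every array (6.02 to 6.19), so it is a dim gene. Cfap300 was also the gene closest in profile to Wwtr1, which lies on chromosome 3, so the highest tumour they share is no separate observation.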
